A study of Mus musculus with 16 samples.

Results

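The loci described here are 8 genes known for the formative and primed states of pluripotency, Fgf5, Otx2, Pou3f1, Foxd3, Zic2, Sall2, Grhl2 and Lin28b, with the open chromatin regions around them. An open region of the merged ATAC-seq list belonged to a locus when its centre lay in the gene body or within 100 kb of an annotated transcription start site (TSS) of the gene (GENCODE M21, mm10). By this rule 118 of the 81132 regions belonged to the 8 loci, 0.145% of the list, and each region belonged to a single locus.

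ATAC-seq, in which the Tn5 transposase cuts and tags accessible DNA, was performed on mouse ES cells sorted by their levels of SOX2 and OCT4 to ask how these levels relate to chromatin accessibility. The cells were SBROS, a line derived from CGR8 that has reporters at Sox1 and Brachyury from its parent line SBR, a SNAP tag on both Sox2 alleles and a HALO tag on 1 Oct4 allele. They grew in serum medium with LIF, CHIR99021 and PD184352 and were sorted in G1 phase. SHOH cells were high for SOX2 and for OCT4, SHOL cells were high for SOX2 and low for OCT4, SLOH cells were low for SOX2 and high for OCT4, and SLOL cells were low for both, with 3 libraries for each population. All libraries came from 1 clonal line, and the OCT4 signal used for sorting came from the tagged allele. The list pools the open regions of all 12 libraries and holds positions without levels. It therefore does not tell in which population a region was open, and neither sequencing depth nor spread between replicates can be read from it. Values below describe the pooled list and are set beside the same values over all regions or over all 21938 protein-coding genes.

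Start sites of marker genes were compared with the ES cell label. A TSS lay in an open region for 6 of 8 ES cell genes, Pou5f1, Esrrb, Zfp42, Dppa5a, Tdgf1 and Utf1. The TSSs of Sox2 and Nanog lay outside the regions, although 12 and 32 regions lay around these genes. No TSS of the 4 liver, 3 muscle and 3 blood genes lay in a region, and a further blood gene, Hbb-b1, was not analysed here because the annotation does not use that symbol. In contrast, 4 of 6 fibroblast or feeder genes, Col1a1, Col1a2, Thy1 and Pdgfrb, had a TSS in a region. Over all protein-coding genes 61.4% had a TSS in a region. The ES cell and fibroblast or feeder genes were thus near the share of any coding gene, and the liver, muscle and blood genes were below it.

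Naive ES cells resemble the epiblast before implantation. On leaving this state they pass through a formative state, in which they become able to respond to lineage signals, and later reach the primed state of the epiblast after implantation. Along this path naive factors are lost while Fgf5, Otx2, Pou3f1 and other genes rise, and OCT4 and SOX2 remain present and bind partly different enhancers.

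The sequences below show regions with motifs of the sorted factors, because SOX2 and OCT4 levels defined the populations. All are from mm10 and are written on the strand of the gene, 5′ to 3′. The OCT octamer ATGCAAAT, searched on both strands, occurred in 2 of the 118 regions, and capitals mark it in both. The region of Zic2 was centred 58.9 kb upstream of the gene start between genes, and the stretch shown is chr14:122416478-122416627, plus strand. The region of Lin28b, centred 60.6 kb upstream and also between genes, is shown over chr10:45547005-45547112, minus strand.
Zic2 octamer: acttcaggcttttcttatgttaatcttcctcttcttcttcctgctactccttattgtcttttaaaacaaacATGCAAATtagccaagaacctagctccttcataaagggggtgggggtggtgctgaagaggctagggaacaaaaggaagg
Lin28b octamer: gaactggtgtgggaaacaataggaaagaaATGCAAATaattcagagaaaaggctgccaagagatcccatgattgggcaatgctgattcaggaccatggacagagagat

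Matches of the SOX motif, CCATTGT or CCTTTGT on either strand, are capitalised in the 4 regions that had more than 1 of them. At Otx2 the region lay 27.4 kb upstream in an intron of Otx2os1, a non-coding transcript of the opposite strand (chr14:48700949-48701098, minus strand). At Foxd3 it lay 19.0 kb downstream of the gene start in an intron of Gm12682 (chr4:99675305-99675499, plus strand). The Grhl2 region was intergenic, 17.2 kb upstream (chr15:37215861-37216010, plus strand). In Lin28b the region lay in an intron, 40.1 kb downstream of the gene start (chr10:45446354-45446503, minus strand), and both matches were next to each other.
Otx2 SOX matches: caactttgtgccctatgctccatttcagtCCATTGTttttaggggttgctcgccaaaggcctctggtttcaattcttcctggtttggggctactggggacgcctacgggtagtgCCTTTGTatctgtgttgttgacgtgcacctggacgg
Foxd3 SOX matches: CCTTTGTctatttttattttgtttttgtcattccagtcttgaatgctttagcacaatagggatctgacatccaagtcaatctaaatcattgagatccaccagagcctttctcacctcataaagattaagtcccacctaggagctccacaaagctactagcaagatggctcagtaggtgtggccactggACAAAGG
Grhl2 SOX matches: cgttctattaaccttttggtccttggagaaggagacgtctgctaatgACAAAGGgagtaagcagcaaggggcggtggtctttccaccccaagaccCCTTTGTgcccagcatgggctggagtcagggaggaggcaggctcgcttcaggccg
Lin28b SOX matches: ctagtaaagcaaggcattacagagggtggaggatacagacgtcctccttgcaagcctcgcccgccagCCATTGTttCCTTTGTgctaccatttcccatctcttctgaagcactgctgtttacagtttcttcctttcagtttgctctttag

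For contrast, the 300 bases before the start of Fgf5, Foxd3 and Lin28b are shown with CpG dinucleotides in capitals, since the regions over these starts were rich in them. They are chr5:98253884-98254183 (plus strand), chr4:99655999-99656298 (plus strand) and chr10:45486396-45486695 (minus strand). Each stretch lay within an open region, and the Lin28b start is that of a processed transcript, not of the coding one. They held 32, 22 and 49 CpGs, and the Foxd3 stretch also held 1 SOX match, left in lower case.
Fgf5 before the start: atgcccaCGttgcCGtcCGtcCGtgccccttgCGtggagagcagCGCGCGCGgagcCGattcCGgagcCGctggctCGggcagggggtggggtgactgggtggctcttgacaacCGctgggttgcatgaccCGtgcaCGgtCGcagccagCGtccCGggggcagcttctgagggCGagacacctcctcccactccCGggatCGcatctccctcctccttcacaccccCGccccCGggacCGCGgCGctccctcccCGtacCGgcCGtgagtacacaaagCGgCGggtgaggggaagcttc
Foxd3 before the start: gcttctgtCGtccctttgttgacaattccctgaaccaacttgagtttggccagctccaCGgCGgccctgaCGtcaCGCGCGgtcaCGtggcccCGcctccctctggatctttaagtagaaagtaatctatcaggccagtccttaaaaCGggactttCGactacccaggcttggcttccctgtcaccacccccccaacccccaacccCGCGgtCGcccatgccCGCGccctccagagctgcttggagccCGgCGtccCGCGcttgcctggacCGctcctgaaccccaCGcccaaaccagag
Lin28b before the start: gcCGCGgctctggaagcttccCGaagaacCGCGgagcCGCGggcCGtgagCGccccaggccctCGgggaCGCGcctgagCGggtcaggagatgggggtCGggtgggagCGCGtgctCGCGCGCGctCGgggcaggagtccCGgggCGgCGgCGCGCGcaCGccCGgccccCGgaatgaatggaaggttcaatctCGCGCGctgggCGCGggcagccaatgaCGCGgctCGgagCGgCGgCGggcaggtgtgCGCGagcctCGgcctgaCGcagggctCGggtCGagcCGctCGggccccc

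Across the 8 windows, which summed to 1746 kb, open regions covered 53.8 kb or 3.08% of the bases. The number of regions per locus ran from 11 to 22, with a median of 12.5, beside a median of 11 and quartiles of 6 and 17 over all protein-coding genes counted by the same rule. Foxd3, Pou3f1 and Zic2 stood above the upper quartile and together held 60 of the 118 regions. This set changed with the window, an alternative chosen after seeing the data. Within 50 kb Pou3f1 and Zic2 (14 each) and Otx2 (11) exceeded the upper quartile of 10 and Foxd3 (10) did not, and within 200 kb Zic2 alone did (34, quartile 30). The other 5 loci had 11 to 13 regions and were close to the median gene. Windows of the 8 loci differ in length because the annotated TSSs of a gene can lie far apart, so densities are given too. Per 100 kb of window the order was Grhl2 3.63, Otx2 5.19, Fgf5 5.49, Sall2 5.65, Lin28b 6.01, Foxd3 9.0, Pou3f1 10.0 and Zic2 10.9 regions. The median protein-coding gene had 5.00, which 7 of the 8 loci exceeded.

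**Figure D1:**
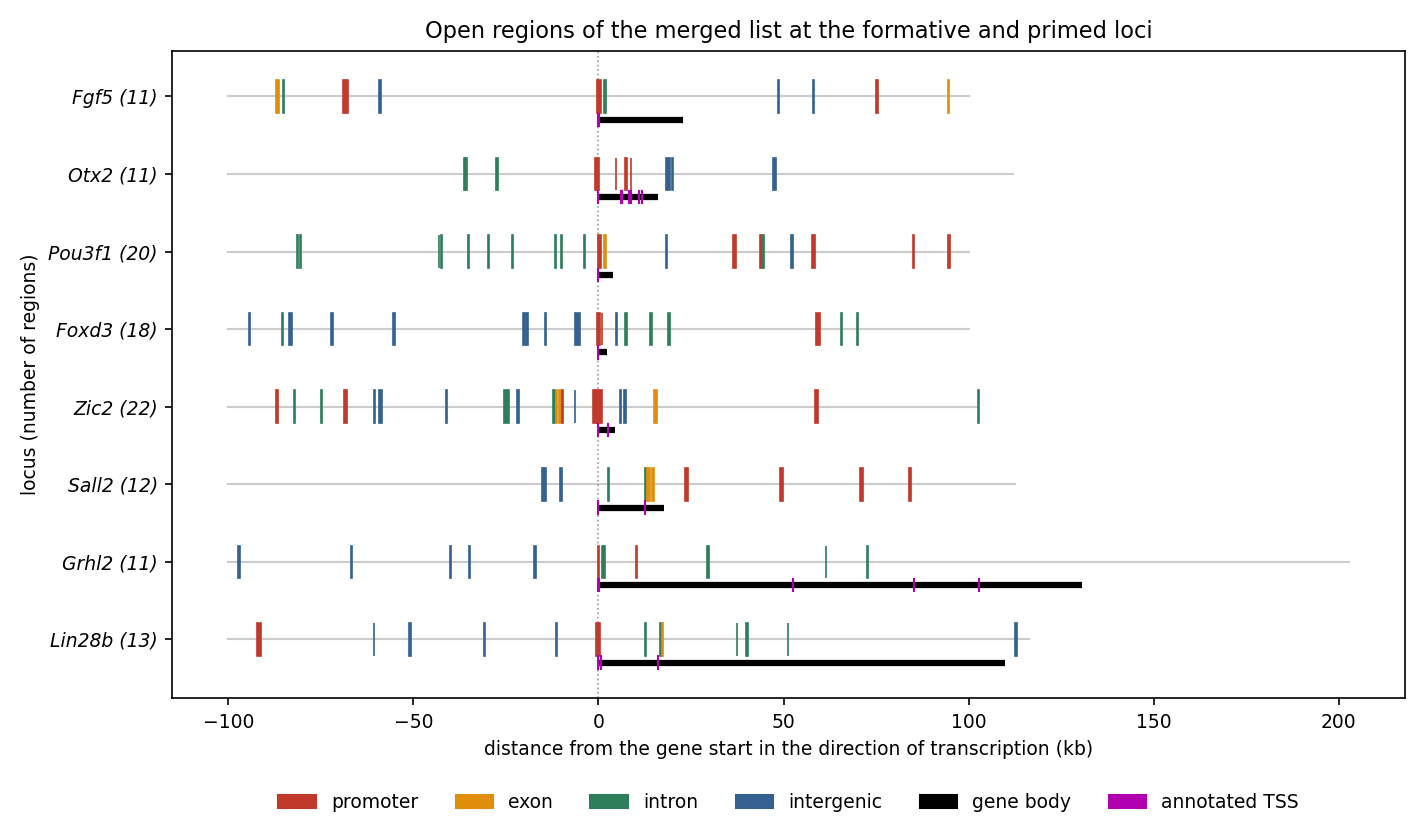
Open regions at the 8 loci, with the distance from the gene start along the direction of transcription in kb on the horizontal axis and a locus on each line. Bars mark regions coloured by the class of their centre and have a fixed outline, so that their position but not their width is to scale, black bars mark gene bodies and purple ticks TSSs, and the grey line is the window. Regions gather near the start of Zic2, Otx2 and Foxd3, while Sall2 has none between 15.2 kb and 100 kb upstream.

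Most regions lay outside the gene itself. Of the 118 centres, 59 were upstream of the gene start, 27 in the gene body and 32 downstream of the gene end. Within the bodies 15 centres fell in introns, 7 in coding sequence, 5 in a 5′ UTR and 0 in a 3′ UTR. The sequence around the start was the densest part. Counted from the gene start, 5.00 regions per 10 kb and gene lay in the first kb upstream and 7.5 in the first kb downstream, against 2.69 and 4.62 over all protein-coding genes. From 1 to 10 kb downstream the loci had 1.53 regions per 10 kb and gene and all genes had 0.492. At 50 to 100 kb downstream the loci were lower, with 0.400 against 0.501. These averages rest on few regions near the start, 4 in the first kb upstream and 6 in the first kb downstream.

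**Figure D2:**
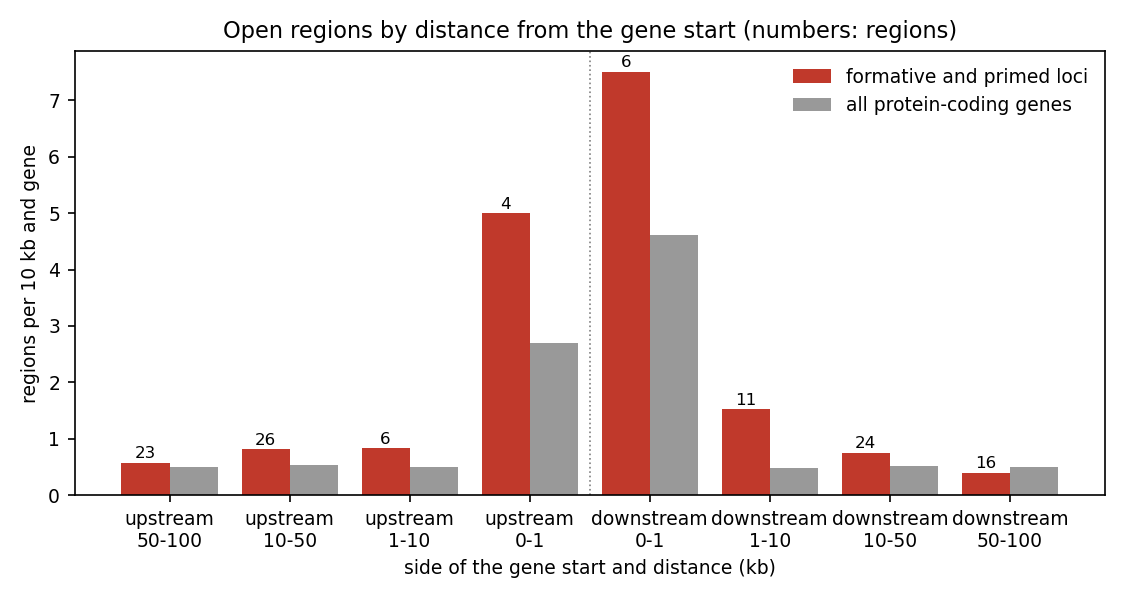
Open regions per 10 kb and gene, by side of the gene start and distance in kb, for the 8 loci (red, with the number of regions) and all protein-coding genes (grey). The difference is widest in the first kb on both sides of the start and small beyond 50 kb.

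By the class at the centre, 33 regions (28.0%, 95% Wilson interval 20.7% to 36.7%) lay in a promoter of any gene, taken as the 1000 bp before a TSS and the 100 bp after it. Over all regions this share was 20.96%, which lay just inside the interval. Other promoter definitions gave wider gaps. The loci and all regions had 36.4% and 28.2% with 1 kb to both sides, and 61.9% and 45.7% with 5 kb. Intervals here and in the rest of the text cover counting error only. Because the windows are placed at genes, the rule itself favours promoters and short distances to a TSS. Of these 33 promoter regions, 8 were in a promoter of the locus gene itself and 25 in promoters of its neighbours. A further 10 regions were exonic (8.47%), 38 intronic (32.2%) and 37 intergenic (31.4%), beside 8.76%, 35.0% and 35.2% of all regions. The locus gene was the closest gene, by TSS, for 28 regions (23.7%, 16.96% to 32.2%). With coding genes alone it was the closest for 65 regions (55.1%, 46.1% to 63.8%). Non-coding transcripts and neighbours therefore took much of the assignment.

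Of the 26 distinct TSSs of the 8 genes, 9 lay in an open region. At least 1 TSS lay in a region for 6 genes, at Lin28b only that of a processed transcript. For Zic2 and Sall2 none did, and their closest TSSs were 160 and 113 bp from a region. The share over all protein-coding genes with a TSS in a region was 61.4%. The account of each locus follows, ordered by what the gene encodes.

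Fgf5 encodes a secreted fibroblast growth factor whose transcript is a classical mark of the epiblast after the naive state. The gene (chr5:98254184-98277030, plus strand) had 11 regions, more than 45.9% of protein-coding genes. A region of 1112 bp (chr5:98253726-98254837), the widest of the locus, covered both annotated TSSs, and its centre lay in the 5′ UTR. A second region (chr5:98255798-98256212) lay in an intron 1.82 kb from the gene start and had matches of the OTX, forkhead and ZIC motifs. These were the only regions for which Fgf5 was the closest gene. Upstream of the promoter region the locus was empty for 58.4 kb. Beyond that gap 5 regions had Prdm8, a PR domain zinc finger gene, or A730035I17Rik as closest gene. The rest of the gene body had none, and downstream 2 intergenic regions stood 48.6 and 58.1 kb from the gene start (chr5:98302583-98302924 and chr5:98312155-98312395), before the promoter of Cfap299 at 75.2 kb. Cfap299 and A730035I17Rik were the closest genes of 3 regions each. Fgf5 was the single locus in which no region had a SOX match.

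Otx2 encodes a paired-type homeobox factor that drives the exit from the naive state and redirects OCT4 to new enhancers. At this locus (chr14:48657677-48673819, minus strand) 11 regions formed an island. All lay within 36.2 kb of an Otx2 TSS, and the closest region outside the window was 157677 bp from a TSS. Of the 10 annotated TSSs, 2 lay in open regions, the most upstream one (region chr14:48673560-48673852) and 1 that starts 8713 bp further downstream (chr14:48664970-48665117, 148 bp). Both of these regions were centred in 5′ UTR sequence. The cluster of 5 TSSs between 6175 and 6311 bp downstream of the gene start lay 776 to 912 bp from the closest region. Promoter regions made up 5 of the 11. Downstream of the gene, 2 intergenic regions stood 18.7 and 20.0 kb from the start, the first of them the widest of the locus with 996 bp (chr14:48654603-48655598). Upstream, 3 regions lay in an intron of Otx2os1, 27.4 to 36.2 kb from the start, and had Gm49153 as closest gene. A final region 47.6 kb downstream (chr14:48625844-48626535) had a SOX and an OTX match. By coding genes, every region of this locus had Otx2 as its closest gene.

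Pou3f1 encodes OCT6, a POU factor that comes up in the formative state and later acts in neural and glial cells. Its locus (chr4:124656807-124660655, plus strand) had 20 regions, more than 83.0% of protein-coding genes. The widest, 773 bp (chr4:124656785-124657557), covered the TSS with its first bases and reached into the gene, with its centre in the 5′ UTR. A second region was centred in the coding sequence of this gene, 1.77 kb from the start (chr4:124658407-124658753). Upstream, all 10 regions lay in introns of the long non-coding transcript Gm2164, which runs the opposite way. They were narrow, from 160 to 310 bp, and stood from 3.70 to 81.3 kb away. The coding gene 3100002H09Rik was the closest gene of 5 of them. Downstream the picture changed to promoters of other genes, with regions at Utp11, Fhl3, Sf3a3 and Inpp5b. Intergenic regions were rare on this side, with 1 of 316 bp at 18.4 kb and another at 52.4 kb. ZIC matches occurred in 10 of the 20 regions, the highest number of the 8 loci.

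Foxd3 encodes a forkhead factor required in the early epiblast and in the neural crest. The gene (chr4:99656299-99658622, plus strand) has 1 exon and had 18 regions around it, more than 76.3% of protein-coding genes. Its TSS lay in a region of 762 bp (chr4:99655835-99656596) with 1 SOX match, and a second region (chr4:99657137-99657374) lay in the coding sequence. The widest region of the locus, 1258 bp, was intergenic and stood 5.67 kb upstream (chr4:99650003-99651260). With 15 regions outside promoters the locus exceeded 86.5% of protein-coding genes by that count. A stretch of 20 kb around the gene held 6 regions. Upstream of the TSS region 9 regions were spread to 94.4 kb, none of them in a promoter, and every one had Foxd3 as its closest coding gene. By any gene, Foxd3 was closest for 1 region and the small non-coding gene Gm23366 for 5. SOX matches were found in 4 regions, the TSS region and 3 intronic regions of Gm12682 that lay 7.47, 14.1 and 19.0 kb downstream. The last 3 regions, from 59.4 kb on, belonged to Alg6, a glycosylation enzyme gene.

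Zic2 encodes a zinc finger factor that acts in the primed epiblast and in neural development. The gene (chr14:122475435-122479852, plus strand) had the most regions of the 8 loci, 22, covering 5.32% of its window and exceeding 88.2% of protein-coding genes. The 2 annotated TSSs were outside every region. The upstream one lay 160 bp from the closest region, in a gap between a promoter region (chr14:122474841-122475275) and a region centred in coding sequence (chr14:122475672-122476318). Accessibility in the pooled list thus flanked the start on both sides. A stretch of 20 kb that includes it held 10 regions, among them 4 at the neighbouring gene Zic5, which is transcribed away from Zic2. The widest region of all 8 loci, 1410 bp (chr14:122449859-122451268), stood 24.9 kb upstream in an intron of the coding gene Gm5089. The symbol Gm5089 stands for both a coding and an antisense gene in the annotation, and together these were the closest for 7 regions. The region with the octamer (chr14:122416100-122416979, 880 bp) had in addition 1 SOX, 2 ZIC and 1 ESRRB match, so that 4 of the motif kinds occurred in it, the most in a single region. It was the only region with both an octamer and a SOX match. SOX matches occurred in 5 regions of the locus.

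Sall2 encodes a zinc finger factor of the spalt family. The gene (chr14:52311172-52328762, minus strand) had 12 regions, more than 50.9% of protein-coding genes, and none of its 2 TSSs lay in one. The upstream TSS was 2571 bp from the closest region and the downstream TSS 113 bp. Just past this second TSS 4 regions followed within the gene, an intronic one with a SOX match (chr14:52315844-52316210) and 3 in coding sequence. No other locus had more than 1 region centred in coding sequence of its gene. Upstream, 3 intergenic regions stood 10.1 to 15.1 kb away, 2 of them with a SOX match, next to the non-coding gene Gm26328, and the following 84.8 kb were empty. Downstream, 4 wide regions of 531 to 886 bp lay in promoters of Mettl3, Rab2b and Chd8. Mettl3 encodes the RNA methyltransferase for N6-methyladenosine and Chd8 a chromatin remodeller. Thus the promoters at this locus were those of neighbours, and the regions of the gene itself lay in its body.

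Grhl2 encodes a grainyhead factor that opens enhancers of epithelial genes as naive cells leave that state. Its gene body is long (chr15:37233036-37363569, plus strand), and with 11 regions in 302702 bp the density was higher than in 36.1% of protein-coding genes, the lowest rank of the 8 loci. A region of 479 bp centred 4 bp from a TSS (chr15:37232801-37233279) covered 2 of the 5 TSSs. The widest region, 603 bp (chr15:37234073-37234675), followed 1.34 kb into the gene and had a GC content of 70.6%. Upstream, 5 intergenic regions were spread from 17.2 to 97.2 kb. For all 11 regions Grhl2 was the closest coding gene. Further into the body 4 regions in introns followed, up to 72.7 kb from the start. From there to the end of the window no region was listed, a stretch of 129.9 kb with the later part of the gene and its 2 most downstream TSSs. The grainyhead motif AACCGGTT had no match in any of the 118 regions.

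Lin28b encodes an RNA-binding protein that blocks the maturation of let-7 microRNAs and is gained on the way to the primed state. At this gene (chr10:45376620-45486395, minus strand) 13 regions were listed, more than 55.4% of protein-coding genes. A region of 1112 bp (chr10:45485923-45487034) covered the most upstream TSS, the start of a processed transcript and not of the coding one. This region had the highest ratio of observed to expected CpGs of the 118 regions, 1.08. The start of the coding transcript, 16194 bp further downstream, lay 346 bp from the closest region. After it came an intronic region and a region centred in coding sequence (chr10:45469324-45469855 and chr10:45469030-45469230). Lin28b was the closest gene for 8 of the 13 regions, the highest share of the 8 loci. The octamer was found in a narrow region of 143 bp (chr10:45546970-45547112). Some regions of the locus lay in repeats. In the soft-masked reference, 2 regions, 30.9 kb upstream and 37.4 kb downstream of the start, consisted entirely of masked bases, and these were the only such regions of the 118, beside 1.73% of all regions. A further region 51.0 kb upstream was masked over 93.1% of its bases. The 118 regions together were masked less than all regions, with medians of 7.32% and 9.12% and means of 13.4% and 19.7%. The outermost upstream region (919 bp, 91.7 kb) was the promoter of Hace1, a ubiquitin ligase gene.

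At the 100 kb limit the regions farthest from a TSS of their gene were 94374 bp away at Fgf5, 36222 bp at Otx2, 94701 bp at Pou3f1 and 94387 bp at Foxd3. Of the 8 loci Otx2 had the shortest such distance. The farthest regions were 99943 bp away at Zic2, 71704 bp at Sall2, 97232 bp at Grhl2 and 96713 bp at Lin28b. The first region outside stood at 109183, 157677, 145607 and 139405 bp for the first 4 genes. No locus had a region in the first kilobases beyond the limit. The first one stood at 112029 bp for Zic2, 118960 bp for Sall2, 107101 bp for Grhl2 and 134097 bp for Lin28b. The Zic2 region at the limit (chr14:122577970-122578115) lay in an intron of Pcca.

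The same count was made for 25 other pluripotency genes in 3 lists. The 12 other formative and primed genes had 3 to 24 regions with a median of 20.5, lowest at Sox3 and highest at Dnmt3b, a de novo DNA methyltransferase, and Lef1, a Wnt effector. The 10 naive genes had 3 to 25 with a median of 18, lowest at Nr0b1 and highest at Dppa3. The 3 core genes had 12 at Sox2, 24 at Pou5f1 and 32 at Nanog. The median of 12.5 at the 8 loci was below the median of each list and nearer to the 11 of all protein-coding genes. Per 100 kb the medians were 5.83 for the 8 loci, 9.75 for the other formative and primed genes, 8.00 for the naive genes and 11.8 for the core genes. Windows of neighbouring genes overlap, and Zic5 shared 21 of its 22 regions with Zic2 and Dppa3 16 of its 25 with Nanog. A TSS lay in an open region for 6 of the 8 genes, 11 of the 12 other formative and primed genes, 9 of the 10 naive genes and 1 of the 3 core genes. Over all protein-coding genes 61.4% had a TSS in an open region, and the core list has only 3 genes. Differences between these shares were not tested.

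**Figure D3:**
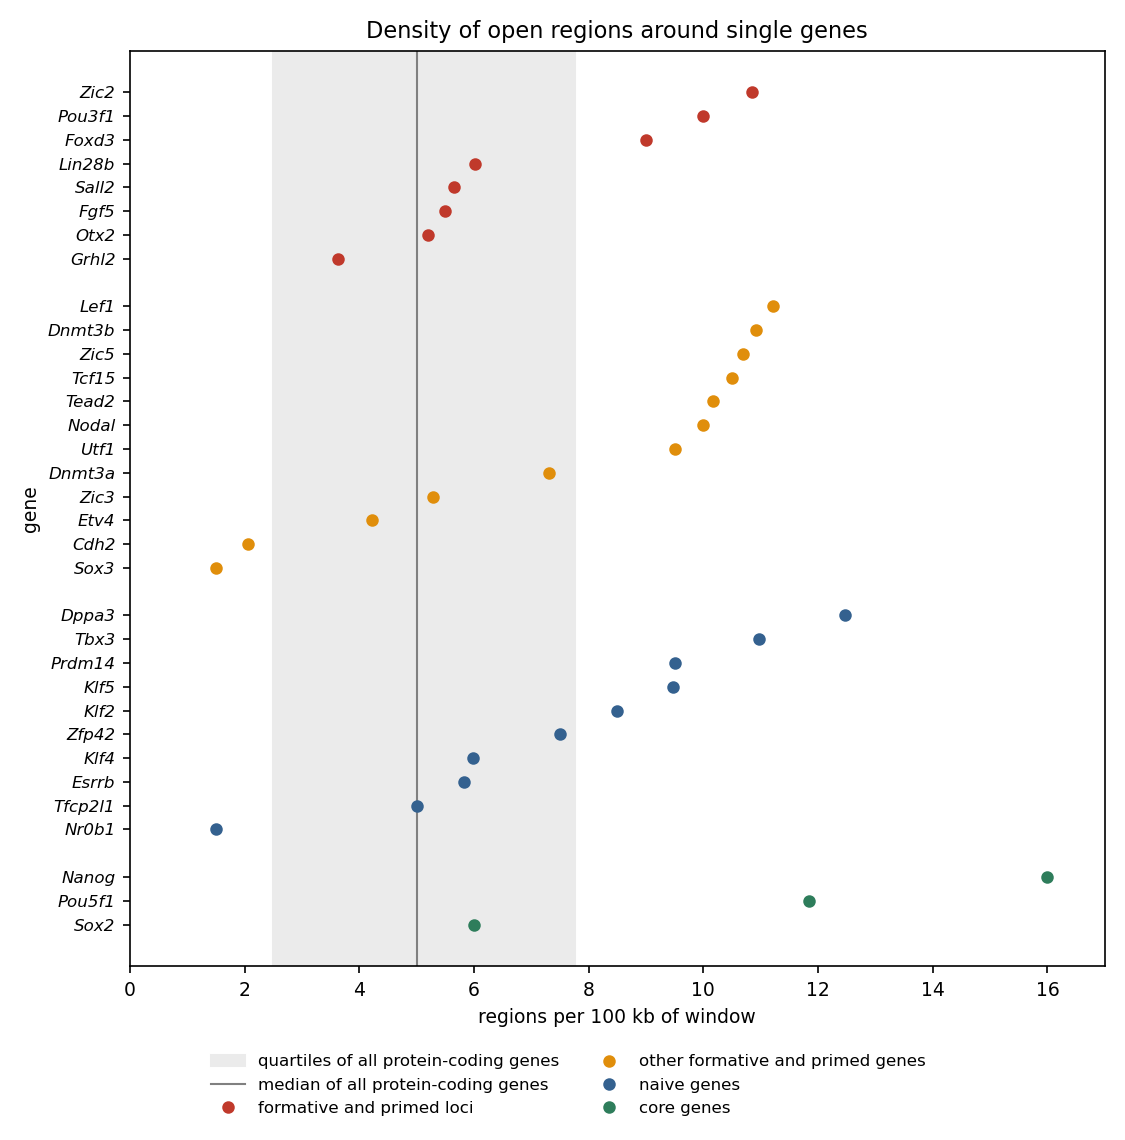
Open regions per 100 kb of window (horizontal axis) for each gene (vertical axis) of the 8 loci and the 3 other lists, with the median and quartiles of all protein-coding genes in grey. Zic2, Pou3f1 and Foxd3 lie above the upper quartile, and the other 5 loci lie between the quartiles.

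In width and composition, the regions of the 8 loci had a median of 398 bp and ran from 133 to 1410 bp, beside a median of 355 bp over all regions. Promoter regions were the widest class, with a median of 647 bp against 600 bp of all promoter regions, and intergenic regions were also wider than all of their class (397 and 321 bp). Regions in exons (349 and 383 bp) and introns (247 and 307 bp) were narrower. Regions at the loci stood close together, and 57.6% had another region within 5 kb, compared with 45.1% of all regions. They also stood closer to genes, with a median of 2.74 kb to the closest TSS against 6.26 kb. The full list is not limited to windows at genes, so these differences in spacing and distance cannot be told apart from the rule.

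The GC content had a median of 56.3% at the loci and 51.9% over all regions. Outside promoters it was 53.1% and 50.3%, so the difference was smaller there and kept its direction. The lowest value was 36.3%, in an intergenic region 59.0 kb upstream of Fgf5, and the highest was 75.4%, in a promoter of A730035I17Rik. The ratio of observed to expected CpGs had a median of 0.435 at the loci and 0.300 over all regions. Outside promoters it was 0.296 and 0.250, and in promoters 0.743 and 0.685, so the difference was smaller within each of these parts. By class the loci had 0.743 in promoters, 0.605 in exons, 0.401 between genes and 0.217 in introns. Intronic regions were thus poor in CpG while promoters and exons were rich in it.

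**Figure D4:**
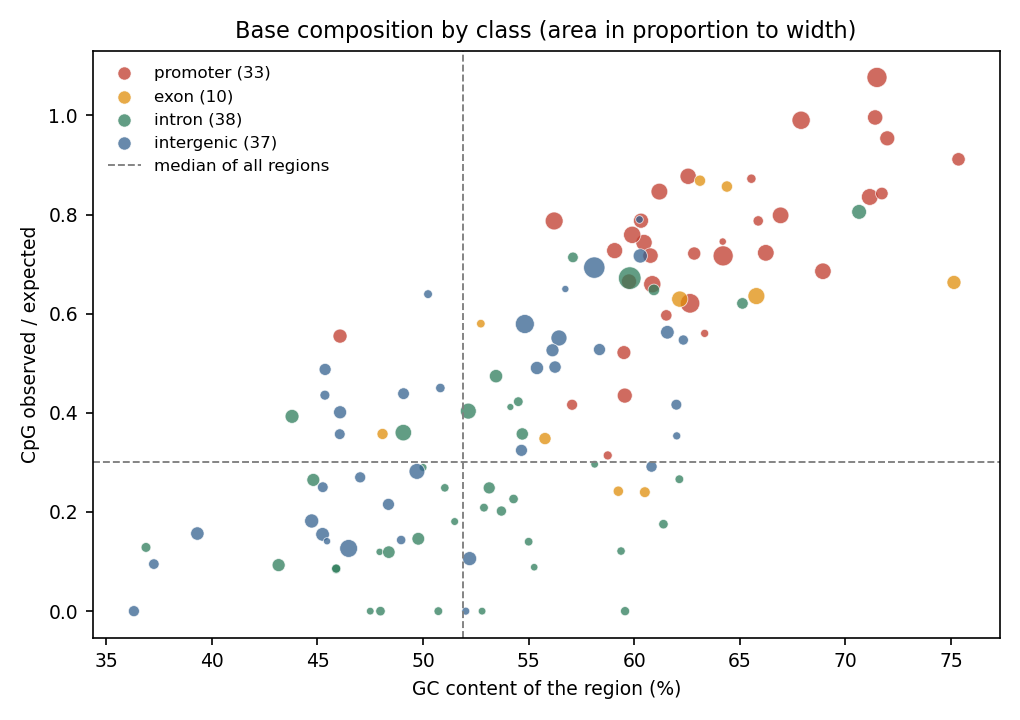
GC content in percent (horizontal axis) and ratio of observed to expected CpGs (vertical axis) of the 118 regions, coloured by class, with the area of a point in proportion to the width of the region. Dashed lines are the medians of all regions, 51.9% and 0.300, and the promoter regions, all but 1, lie above both.

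Motifs were searched as exact letters on both strands, and a match describes letters, not a bound site. CCATTGT contains the core CATTGT, and the OCT-SOX composite, CATTGT followed within 1 base by ATGCAAAT, contains the octamer. The SOX motif occurred in 21 of the 118 regions (17.8%, 11.9% to 25.7%), beside 16.02% of all regions and 13.8% (8.67% to 21.2%) of flanks of the same width 5 kb away. The octamer occurred in 1.69% (0.466% to 5.97%), beside 2.66% of all regions and 5.17% (2.39% to 10.8%) of the flanks. The order between loci and all regions depended on the settings for both motifs. In the central 200 bp it turned for SOX, with 5.93% at the loci and 8.73% of all regions, and for the octamer, with 1.69% and 1.51%. With CATTGT alone, which leaves out CCTTTGT, the SOX shares were close, with 16.9% at the loci and 17.1% of all regions. Over whole regions, for both motifs of the sorted factors, the share over all regions lay within the interval of the loci. The composite was in none of the 118 regions and in 7 of all regions. A count of 0 allows a share of up to 2.54% if 3 regions are taken as its limit, and up to 3.15% by the Wilson interval.

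Motifs of the other families were compared in the same way. ZIC (CCTGCTG) was the most frequent, in 31 regions (26.3%, 19.2% to 34.9%), beside 20.4% of all regions and 9.48% (5.38% to 16.2%) of the flanks. Its letters are rich in G and C, and so were the regions, with a median GC content of 56.3% against 43.3% in the flanks. The part of GC content in this difference was not tested. OTX (TAATCC) went the other way, with 7 regions (5.93%, 2.90% to 11.7%), beside 10.4% of all regions and 17.2% (11.4% to 25.1%) of the flanks. The flanks of all regions had 10.3% for ZIC and 17.2% for OTX, so both contrasts were also present over the whole list. The part of GC content was not tested for OTX either. The remaining motifs were less frequent than ZIC. ESRRB (AAGGTCA) occurred in 10 regions (8.47%, 4.67% to 14.9%) and 10.9% of all regions. Forkhead (TGTTTAC) occurred in 6 regions (5.08%, 2.35% to 10.7%) and 4.95% of all regions. Grainyhead (AACCGGTT) occurred in 0 regions, with the same limits as the composite, and in 0.282% of all regions. For all 8 motifs the share over all regions lay within the interval of the loci. In total 62 of the 118 regions had no match of any of the motifs, 40 had 1 kind and 16 had 2 or more.

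**Figure D5:**
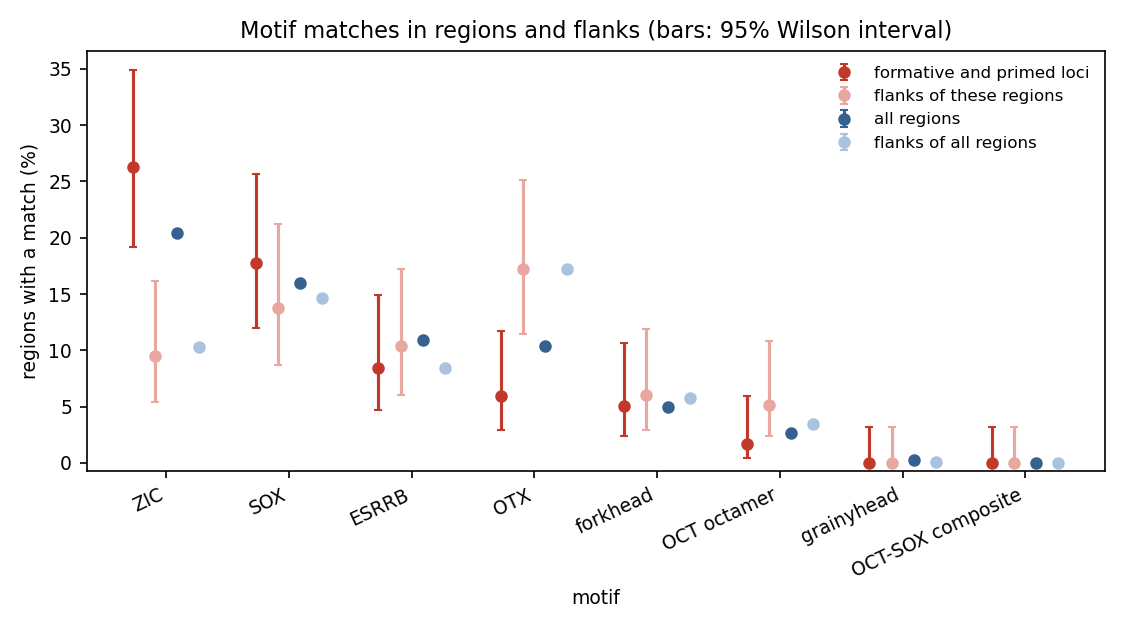
Share of regions with a match (percent, vertical axis) for each motif (horizontal axis), at the 8 loci, in their flanks, in all regions and in the flanks of all regions, with 95% Wilson intervals. ZIC is more frequent in regions than in flanks and OTX less frequent, and the intervals of the 8 loci include the values of all regions.

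Matches per locus were few, and the loci differ in their number of regions. SOX matches were in 5 of 22 regions at Zic2, 4 of 18 at Foxd3, 4 of 12 at Sall2, 2 of 20 at Pou3f1, 2 of 13 at Lin28b, 2 of 11 each at Otx2 and Grhl2, and 0 of 11 at Fgf5. ZIC matches were in 10 of 20 regions at Pou3f1, 7 of 18 at Foxd3, 4 of 11 at Fgf5, 3 of 11 at Grhl2, 3 of 13 at Lin28b, 2 of 22 at Zic2, 1 of 11 at Otx2 and 1 of 12 at Sall2. Differences between single loci were not tested. The OTX motif was in 1 of the 11 regions at Otx2 and the forkhead motif in 1 of the 18 at Foxd3, where 10.4% and 4.95% of all regions had them.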

How the data were processed

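Per the labels and methods, the authors aligned ATAC-seq reads to mm10 with STAR 2.5.3a, kept unique reads, removed duplicates with Picard and found peaks per library with MACS2 2.1.1.20160309 on paired-end fragments. BEDOPS joined the peaks from the 12 libraries, and those hitting ChIP-seq input peaks were dropped. No shift for Tn5 insertion is stated. The deposited list of 81132 regions has chromosome, start and end without counts, so read depth cannot be taken from it. The ChIP-seq samples were not analysed here.

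Regions were assigned by their centre to GENCODE M21 windows with Python 3.11.15, numpy 2.4.6 and pandas 2.3.3, and sequences were read from GRCm38 (mm10) with pysam 0.24.0. Wilson intervals (95%) used scipy 1.17.1, and plots matplotlib 3.10.9. A class was taken in the order promoter, exon, intron, intergenic. Flanks of the same width 5 kb away holding no region were found for 116 of the 118 regions. Counting and motif search were tested on simulated data.

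The text names all 8 genes, for 6 loci the gene closest to most other regions, the highest and lowest gene of each list, and regions over TSSs, widest, at the limit or with an octamer. Other regions and neighbours were named after their values were seen. Members and lists were chosen with earlier results of these data known. Window sizes, TSS sets, promoter definitions, widths and motif letters were varied.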

Additional observations from a re-analysis of the deposited data

How the results depend on the processing

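Each result was recomputed with 1 choice changed at a time, 49 alternatives in all. Counts and medians were taken as unchanged within 1.5 times the main value and shares within its 95% interval, which held for 39. The number of regions at the 8 loci ran from 80 with a window of 50 kb to 170 with 200 kb. The share of regions with the locus gene as closest gene moved from 23.7% to 55.1% when coding genes alone were used. The share in promoters moved from 28.0% to 61.9% with promoters of 5 kb to both sides, where all regions had 45.7%. The octamer share fell to 0 with a window of 50 kb, where 0 of 80 regions allows up to 3.75%, taken as 3 of 80. The SOX share was 5.93% in the central 200 bp, beside 8.73% of all regions. Single loci moved in 5 of 24 alternatives. With 50 kb Fgf5 fell from 11 to 3 regions, Foxd3 from 18 to 10 and Zic2 from 22 to 14, and with 200 kb Zic2 rose to 34 and Grhl2 from 11 to 22. The number of loci above the upper quartile of coding genes, an alternative chosen after seeing the data, stayed at 3 with 50 kb, with Otx2 in place of Foxd3, and fell to 1 with 200 kb.

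No paired analysis was possible because the list holds no value for any library, and replicates could not be left out for the same reason. The list also hides depth, and peaks hitting ChIP-seq input peaks were dropped from it, so a missing region does not show closed chromatin. Regions are those of 1 clonal line, the windows do not assign a region to a target gene, and neighbouring regions of a locus are not independent.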
